A study of Rattus norvegicus with 15 samples.

Results

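Complement is a cascade of plasma proteins, receptors and inhibitors that marks microbes and damaged cells. Its classical, lectin and alternative routes meet at the cleavage of C3, and cleavage of C5 then opens the terminal, pore-forming steps. The small fragments C3a and C5a, called anaphylatoxins, act on receptors of myeloid cells, and in the lung C5a is known as an attractant of neutrophils. Lung epithelium, fibroblasts and macrophages make several of these components locally, although the liver is the main source of those in plasma.

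Here 9 genes of the cascade were followed in rat lung: the central component C3, the alternative-route proteases Cfb and Cfd, the classical and lectin protease C2, the terminal component C5, the anaphylatoxin receptors C3ar1 and C5ar1, the soluble inhibitor Serping1 and the membrane regulator Cd55. They were taken by symbol from a table of 22250 genes, and all 9 had a line. RNA sequencing was done on 15 lung libraries, 5 in each of 3 groups of rats labelled wild type. Control rats were normal. Rats of the ALI group (acute lung injury) were given lipopolysaccharide (LPS, a bacterial cell wall component) into the trachea. Rats of the SJY group were given LPS in the same way and, into the stomach, Sang Ju Yin, which is a Chinese herbal preparation. No strain, sex, age, dose or time after LPS is given in the labels, no group with a sham instillation or the vehicle of the formula is named, and whether each library came from a separate rat is not stated. The p-values therefore measure only how far these libraries spread, which may be technical. Values are FPKM, fragments scaled to gene length and to the mapped fragments of the library, so levels can be compared between genes, but the read depth and the counting error of a value are unknown.

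All 10 alveolar type II markers looked up were measured, and their summed level ran from 6148 to 25378 FPKM over the libraries. Among 8 endothelial markers looked up, 7 were in the table and Cldn5 was listed at 0 in all 15 libraries. ALI 1 stood apart, with 37.7% of its summed FPKM in 13 mitochondrial genes. That share was 5.19% to 9.62% in control, 10.4% to 17.1% in SJY and 8.31% to 14.1% in ALI 2 to 5. It also had the lowest sums of its group for the macrophage, type I, type II, endothelial, fibroblast and hepatocyte markers and the highest for the neutrophil markers. Calls that change without ALI 1 are given both ways for the genes named. In bulk lung RNA, fewer cells of a type and less RNA per cell cannot be told apart.

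Of the 9 genes, 8 reached 1 FPKM in at least 14 of the 15 libraries and were tested. Cfb, which encodes the protease of the alternative-route C3 convertase, is listed at 0 in all 15 libraries on both of its 2 lines, so these data say nothing about it. In control lung Serping1 had the highest level, at 151 ± 13.3 FPKM (SD, n = 5, as for the group means that follow), and its libraries did not overlap those of C3 at 51.4 ± 14.7 FPKM. Cd55 at 30.3 ± 7.42 and C5ar1 at 26.4 ± 4.43 FPKM overlapped each other, and so did C5 at 11.9 ± 2.40 and Cfd at 10.9 ± 5.28 FPKM. The lowest were C2 at 4.81 ± 1.41 and C3ar1 at 3.49 ± 2.34 FPKM, which also overlapped.

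LPS-treated lungs of the ALI group had more C3, Serping1 and C5ar1 transcript than control lungs, by 4.87-fold, 2.92-fold and 2.52-fold in mean FPKM, and less C5 and Cd55. Tests were made with limma on log2(FPKM + 1) over all 13457 genes that passed the filter, with Benjamini-Hochberg adjustment, and a gene was called at an adjusted p under 0.05. On this log scale the changes of low genes are understated. Of the 8 members tested, 3 rose and 2 fell, where 17.6% of all genes tested were called (8.02% higher, 9.56% lower). The same 5 members had groups that did not overlap, as did 12.9% of all genes (6.17% higher, 6.73% lower). The median change of the 8 members was 0.87 log2 units, against −0.12 over all genes. The members were chosen with earlier results of these data known, so they are not an independent set. In the SJY group 4 members rose and 2 fell against control, where 32.6% of all genes were called (14.6% higher, 18.1% lower). Groups did not overlap for 5 of the 8 (3 higher, 2 lower), as for 27.7% of all genes (11.8% higher, 15.9% lower). The 2 comparisons share the 5 control libraries. The same shares over all genes stand beside the counts of called cell type markers given later. Between SJY and ALI limma called 0 of the 8 members, where 0.00743% of all genes were called (0.00743% higher, 0% lower), and 4 members had an unadjusted p under 0.05 (3 higher and 1 lower in SJY), as did 11.8% of all genes (6.62% higher, 5.17% lower).

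**Figure D1:**
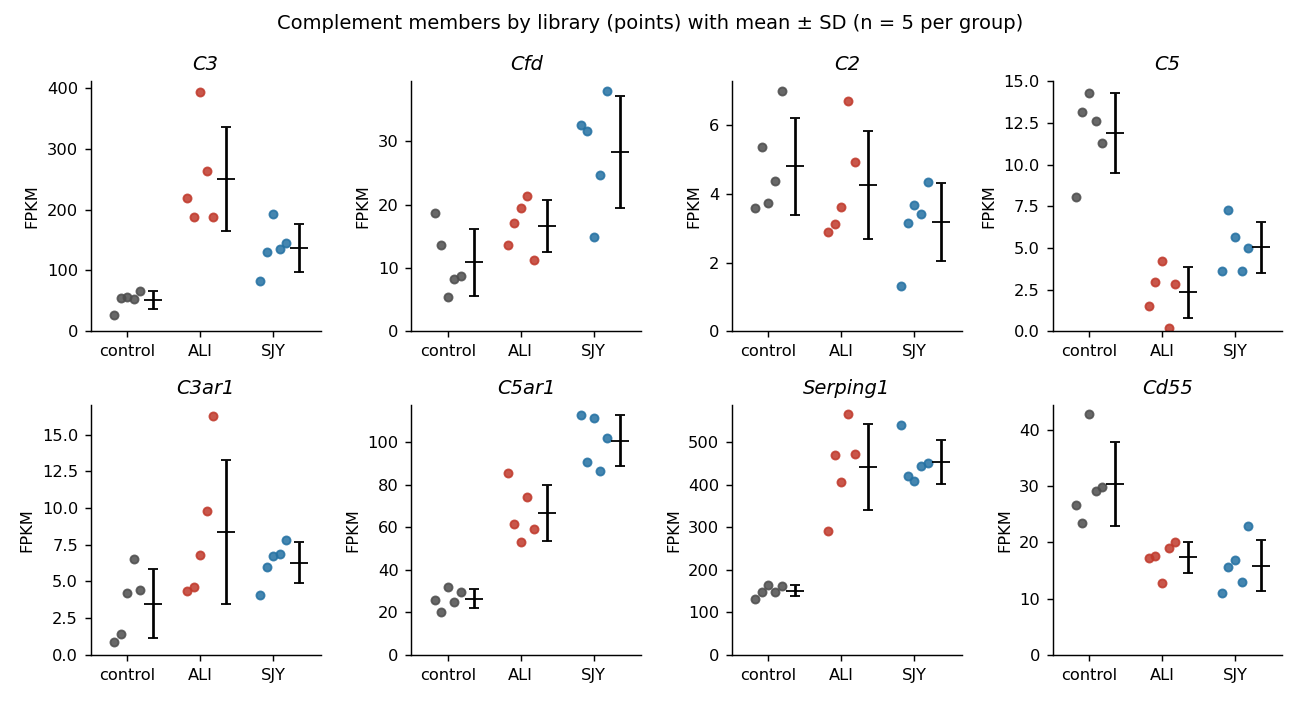
FPKM of the 8 tested members in each library (points) with the group mean and SD (black, n = 5 per group), each panel on its own linear axis from 0. The ALI points of C3, C5ar1 and Serping1 all lie above the control points, and those of C5 and Cd55 all lie below.

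C3 is the component on which all routes converge, and C5 is its paralog at the entry to the terminal steps. The 250 bases before the start of each are shown because the transcripts of these related genes moved in opposite directions (RefSeq, build GRCr8, both on the minus strand, C3 at chr9:2201340-2201589 and C5 at chr3:38759469-38759718). Capitals mark matches on either strand to the letters TTNNGNAA, a loose form of the site of C/EBP factors, which act on acute phase genes.
C3: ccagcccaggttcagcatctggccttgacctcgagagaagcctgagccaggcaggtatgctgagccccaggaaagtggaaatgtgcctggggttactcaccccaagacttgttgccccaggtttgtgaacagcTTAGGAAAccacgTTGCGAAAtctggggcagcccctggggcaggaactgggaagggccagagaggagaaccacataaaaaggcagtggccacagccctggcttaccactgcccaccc
C5: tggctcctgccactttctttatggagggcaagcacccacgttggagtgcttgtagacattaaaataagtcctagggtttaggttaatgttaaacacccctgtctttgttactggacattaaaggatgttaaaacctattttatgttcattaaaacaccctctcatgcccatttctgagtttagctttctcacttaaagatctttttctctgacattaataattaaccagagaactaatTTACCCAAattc
The C3 stretch holds 2 matches, from 117 to 110 and from 104 to 97 bases before the start, and the C5 stretch holds 1, from 12 to 5 bases before it. Such a match is found in 37.19% of 33469 rat stretches of the same length, so both are common. Neither stretch holds a match on either strand to the NF-kB letters (GGG and TTCC with 3 bases of any kind between, in 4.53% of stretches), the STAT letters (TTCNNNGAA, 7.67%) or those of the interferon response element (GAAA and GAAA with 2 bases of any kind between, 3.41%). C3ar1 was the 1 member among the 5 with a stretch in the table (C3, C5, C3ar1, Cfd and Cd55) to match the NF-kB letters, from 64 to 55 bases before its start, and its match GGAAAAGCCC lies on the reverse strand. The match does not overlap any other searched motif, and a match is a description of letters, not a site.

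C3 stood at 26.7, 54.3, 55.9, 53.7 and 66.2 FPKM in control 4 to 8, and at 219, 188, 393, 264 and 188 FPKM in ALI 1 to 5. Every ALI library was above every control library, with ALI 3 the highest and control 4 the lowest. C3 rose by 2.26 ± 0.26 log2 units (SE, limma adjusted p = 4.67e-05). In SJY 1, 3, 4, 5 and 6 it stood at 82.8, 131, 193, 135 and 144 FPKM, again all above control (1.41 ± 0.26 log2 units, limma adjusted p = 0.00123). Means were 250.2 ± 85.6 FPKM in ALI and 137 ± 39.2 FPKM in SJY. The SJY libraries were lower than the ALI libraries except that SJY 4 exceeded ALI 2 and ALI 5. The difference was −0.85 ± 0.26 log2 units and did not pass adjustment (limma adjusted p = 0.245).

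C5 was detected at 8.05, 13.2, 14.3, 12.6 and 11.3 FPKM in control 4 to 8. In ALI 1 to 5 it was 1.496, 2.97, 4.20, 0.171 and 2.84 FPKM, with ALI 4 near 0 and no ALI library reaching the lowest control. C5 fell by 2.09 ± 0.32 log2 units (SE, limma adjusted p = 0.00055), from a mean of 11.9 to 2.34 FPKM. The SJY libraries lay between, at 3.59, 7.30, 5.69, 3.603 and 4.97 FPKM, all below control and mostly above ALI, with ALI 3 above SJY 1 and SJY 5. Against control C5 fell by 1.11 ± 0.32 log2 units in SJY (limma adjusted p = 0.0163), but this call was lost with a pseudocount of 0.1 (adjusted p = 0.0976) or 0.01 (adjusted p = 0.137). The adjusted p of this result ran from 0.000711 to 0.137 over its alternatives. Against ALI, C5 was 0.98 ± 0.32 log2 units higher in SJY, which did not pass (limma adjusted p = 0.269).

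Values of the alveolar type II list, whose cells make C5 in the lung, are set beside C5 in the plot against marker sums. Of its 10 tested markers, 0 rose and 3 fell in ALI, and 0 rose and 5 fell in SJY, both against control. Over all genes tested, 9.56% were called lower in ALI and 18.1% in SJY. The summed level was 16638 to 25378 FPKM in control, 6148 to 21195 in ALI and 17846 to 20368 in SJY. Sftpc and Sftpa1, which were not called in any comparison, carried most of that sum. Their means were 12607 and 3639 FPKM in control, 8507 and 3466 in ALI and 12026 and 3725 in SJY. The sum therefore says little about the markers that fell. ALI 4, with the lowest C5, had the highest sum of its group, and ALI 1 had the lowest sum with C5 at 1.496 FPKM. Of 8 hepatocyte markers in the table, the defining gene Alb was listed at 0 in 11 libraries and the list summed to at most 19.1 FPKM in any library. The part of these cell types in the levels of C3 and C5 was not tested.

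**Figure D2:**
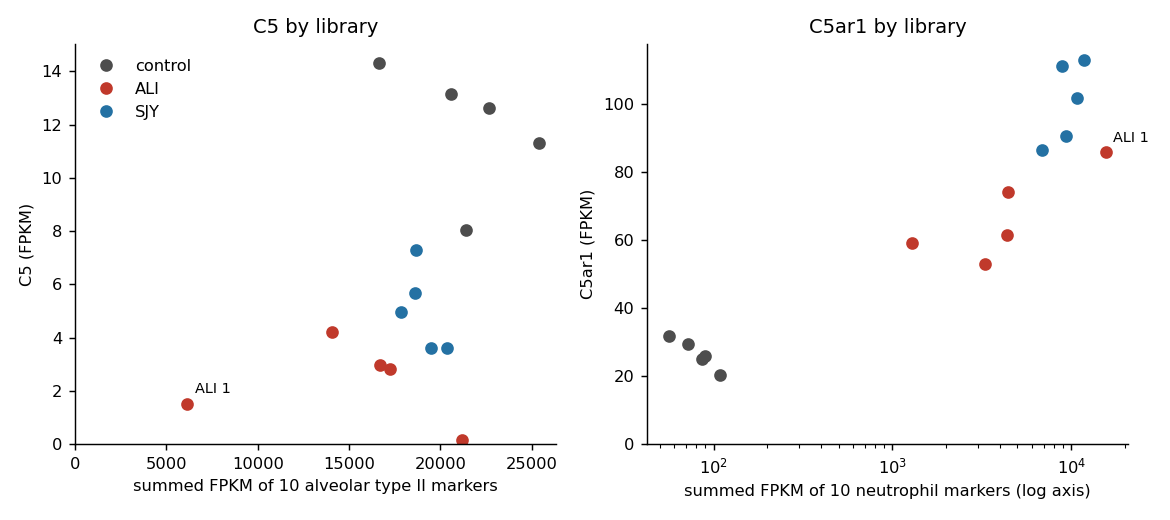
Left, C5 (FPKM) against the summed FPKM of 10 alveolar type II markers. Right, C5ar1 (FPKM) against the summed FPKM of 10 neutrophil markers on a log axis. Each point is 1 library, coloured by group. C5 is below 5 FPKM in all 5 ALI libraries, with type II sums of 6148 FPKM in ALI 1 and 14077 to 21195 in the others. The control libraries are lowest on both axes of the right panel.

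Because both values come from the same library, the ratio of C3 to C5 does not depend on the scaling between libraries. It was 3.31 to 5.86 in control (median 4.13), 63.2 to 1542 in ALI (median 93.4) and 17.9 to 37.5 in SJY (median 29.1). The highest value belongs to ALI 4, where C5 was 0.171 FPKM, and without it the ALI libraries reached 146. The ranges of the 3 groups did not overlap. The ratio is a description of 2 members already given and carries no test.

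**Figure D3:**
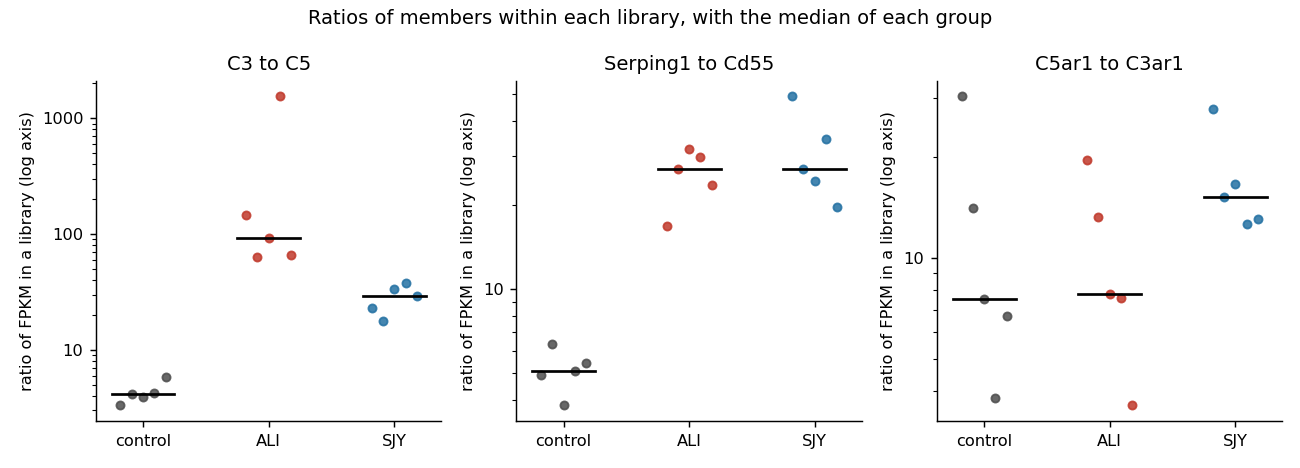
Ratio of FPKM of 2 members within each library (points, log axes) with the group median (line), for C3 to C5, Serping1 to Cd55 and C5ar1 to C3ar1. The C3 to C5 ratios form 3 separate bands, with medians of 4.13 in control, 93.4 in ALI and 29.1 in SJY.

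Cfd encodes factor D, the protease that cuts factor B and is best known as the adipocyte product adipsin. Control 4 to 8 held 18.7, 13.6, 5.34, 8.19 and 8.66 FPKM, and ALI 1 to 5 held 13.7, 17.2, 19.5, 21.3 and 11.3 FPKM, so those groups overlapped (0.64 ± 0.29 log2 units, limma adjusted p = 0.132). The difference was called without control 4 (0.85 log2 units, adjusted p = 0.0412), within a range of 0.0301 to 0.803 over all alternatives. SJY libraries held 32.6, 31.5, 14.9, 24.7 and 37.9 FPKM, and 4 of the 5 exceeded all control and all ALI libraries. Against control Cfd rose by 1.35 ± 0.29 log2 units in SJY (limma adjusted p = 0.00325), from 10.9 to 28.3 ± 8.84 FPKM. Against ALI it was 0.71 ± 0.29 log2 units higher and not called (limma adjusted p = 0.369). Of 4 adipose and mesothelial markers tested, 0 rose and 1 fell in SJY against control, where 18.1% of all genes were called lower. The 9 genes of that list summed to 13.3 to 34.4 FPKM among control libraries, 13.3 to 111 among ALI libraries and 12.6 to 46.5 among SJY libraries, with the defining genes Lep listed at 0 in 10 libraries, Plin1 in 6 and Adipoq in 1. Over the ALI libraries the mesothelial marker Msln averaged 42.4 FPKM, while Adipoq, Lep and Plin1 averaged 0.614, 0.0598 and 0.122 FPKM. The highest sums, 111 FPKM in ALI 3 and 91.7 FPKM in ALI 4, belong to the 2 ALI libraries with the most Cfd. Control 4 likewise had the highest sum and the most Cfd of its group. SJY libraries differed: SJY 4 had their highest sum but their lowest Cfd. SJY 1, with Cfd at 32.6 FPKM, had the lowest sum of all libraries. The part of the listed markers' cells in the Cfd level was not tested.

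C2, the protease of the classical and lectin C3 convertase, was not called in any comparison. It ranged from 3.58 to 7.01 FPKM in control, from 2.88 to 6.72 in ALI and from 1.33 to 4.36 in SJY, and all 3 groups overlapped. The differences were −0.16 ± 0.25 log2 units for ALI against control (limma adjusted p = 0.661), −0.49 ± 0.25 for SJY against control (adjusted p = 0.135) and −0.33 ± 0.25 for SJY against ALI (adjusted p = 0.64). SJY 1 had the lowest C2, at 1.33 FPKM, and the other SJY libraries held 3.14 to 4.36 FPKM.

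C5ar1, the main signalling receptor for C5a on neutrophils and monocytes, separated the 3 groups. Its values were 25.7, 20.3, 31.8, 24.9 and 29.5 FPKM in control 4 to 8, 85.7, 61.4, 52.9, 74.1 and 59.0 FPKM in ALI 1 to 5, and 113, 90.5, 111, 86.3 and 101.8 FPKM in SJY 1, 3, 4, 5 and 6. No group overlapped another, although the lowest SJY library (86.3) was only just above the highest ALI library (85.7, ALI 1). C5ar1 rose by 1.30 ± 0.15 log2 units in ALI (SE, limma adjusted p = 3.8e-05) and by 1.89 ± 0.15 in SJY (limma adjusted p = 5.22e-07), both against control. SJY exceeded ALI by 0.60 ± 0.15 log2 units, or 1.51-fold in mean FPKM, which did not pass over all genes (limma adjusted p = 0.164). Groups of SJY and ALI did not overlap in 3.23% of all genes tested (2.24% with SJY higher, 0.988% with SJY lower), and among the 8 members in C5ar1 alone. Without ALI 1 the difference was 0.69 log2 units and passed (adjusted p = 0.0234), within a range of 0.0182 to 0.41 over all alternatives. In that setting 181 of all genes passed, against 1 with all libraries.

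The neutrophil list also rose against control. Of 9 neutrophil markers tested, 9 rose and 0 fell in both ALI and SJY against control. Their summed level, with the untested 10th gene, was 56.1 to 109 FPKM in control, 1281 to 15669 in ALI and 6887 to 11832 in SJY. Between SJY and ALI 0 of the 9 were called, and 8 had an unadjusted p under 0.05 by limma, all higher in SJY. Over all genes tested, 11.8% had such a p (6.62% higher, 5.17% lower). S100a8 and S100a9 carried most of that sum, with means of 1842 and 3647 FPKM in ALI and 3126 and 5825 in SJY. ALI 1 had both the highest neutrophil sum of all libraries and the highest C5ar1 of its group. Its C5ar1, 85.7 FPKM, was below that of every SJY library, whose sums were lower. In control the library with the lowest sum, control 6 (56.1 FPKM), had the highest C5ar1 (31.8 FPKM). Control 5, with the highest sum (109 FPKM), had the lowest C5ar1 (20.3 FPKM). In SJY the order was the reverse. SJY 1 had the highest sum and the highest C5ar1 of its group (11832 and 113 FPKM). SJY 5 had the lowest of both (6887 and 86.3 FPKM). In ALI the lowest sum was that of ALI 5 (1281 FPKM, C5ar1 at 59.0 FPKM), and ALI 3 had the lowest C5ar1 (52.9 FPKM, with a sum of 3271 FPKM). The part of neutrophil content in the level of C5ar1 was not tested.

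C3ar1, the receptor for C3a, was lower and more variable. It stood at 0.852, 1.44, 4.23, 6.55 and 4.41 FPKM in control 4 to 8 and at 4.37, 4.64, 6.81, 9.77 and 16.3 FPKM in ALI 1 to 5. The control libraries split into 2 low and 3 higher ones, and the latter overlapped ALI. The difference of 1.10 ± 0.38 log2 units missed the threshold (limma adjusted p = 0.0551). It passed without ALI 1 (1.27, adjusted p = 0.0328), without ALI 2 (1.25, adjusted p = 0.0498) or without control 7 (1.34, adjusted p = 0.0338). It also passed after median-of-ratios scaling (1.21, adjusted p = 0.0215) and with the replicate number as a block (2.23, adjusted p = 0.0158). The range was 0.0158 to 0.132 over all alternatives. SJY libraries held 4.07, 5.96, 6.72, 6.85 and 7.81 FPKM. This was 0.86 ± 0.38 log2 units above control (limma adjusted p = 0.0934) and −0.25 ± 0.38 from ALI (adjusted p = 0.85). Against control the adjusted p was 0.0452 without control 7, 0.0409 with median-of-ratios scaling and 0.0164 with the block. It ranged from 0.0164 to 0.221 over all alternatives. The ratio of C5ar1 to C3ar1 had a median of 7.52 in control, 7.77 in ALI and 15.2 in SJY, with overlapping ranges. Of 10 monocyte and macrophage markers tested, 6 rose and 0 fell in ALI, and 6 rose and 0 fell in SJY, both against control. Their sum was 12585 to 18505 FPKM in control, 4823 to 18323 in ALI and 11434 to 16112 in SJY, with Marco listed at 0 in 5 libraries. Lyz2, which was not called, made up 91.0% to 98.5% of that sum, and the other 9 markers summed to 229.6 to 324 FPKM in control, 435 to 613 in ALI and 423 to 613 in SJY. The part of these cells in the level of C3ar1 was not tested.

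Serping1 encodes C1 inhibitor, the serpin that blocks the C1r and C1s proteases of the classical route and kallikrein of the contact system. It stood at 131, 148, 164, 148 and 162 FPKM in control 4 to 8, the narrowest spread of any member relative to its mean in control. In ALI 1 to 5 it stood at 291, 470.2, 405, 566 and 472 FPKM and in SJY 1, 3, 4, 5 and 6 at 539.95, 420.2, 408, 445 and 449.9 FPKM. Every LPS-treated library was above every control library. Serping1 rose by 1.51 ± 0.15 log2 units in ALI (SE, limma adjusted p = 1.27e-05) and by 1.58 ± 0.15 in SJY (limma adjusted p = 3.21e-06). ALI and SJY differed by 0.06 ± 0.15 log2 units (limma adjusted p = 0.909), a difference within 1 SE of 0 that also changed sign between settings.

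Cd55 (decay-accelerating factor, a membrane protein that dismantles C3 convertases on host cells) went the other way. Control 4 to 8 held 26.6, 23.4, 42.8, 29.0 and 29.8 FPKM, ALI 1 to 5 held 17.3, 17.5, 12.8, 19.0 and 20.02 FPKM, and the SJY libraries held 11.0, 15.6, 16.8, 13.0 and 22.95 FPKM. All 10 LPS-treated libraries were below all 5 control libraries, with SJY 6 (22.95) just under control 5 (23.4). Cd55 fell by 0.76 ± 0.19 log2 units in ALI (SE, limma adjusted p = 0.0133) and by 0.91 ± 0.19 in SJY (limma adjusted p = 0.00258), while SJY and ALI differed by −0.15 ± 0.19 (limma adjusted p = 0.815). The ratio of the soluble inhibitor to the membrane regulator, Serping1 to Cd55, was 3.84 to 6.34 in control, 16.9 to 31.6 in ALI and 19.6 to 48.9 in SJY. Both LPS-treated groups lay above control in that ratio and overlapped each other.

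**Figure D4:**
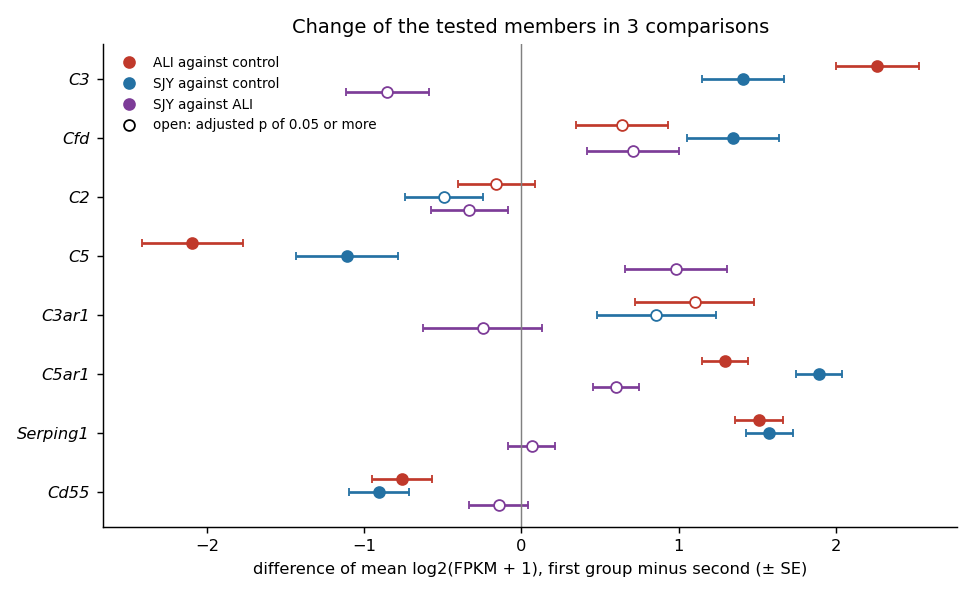
Difference of mean log2(FPKM + 1) of the 8 tested members (points) with its SE (bars) for ALI against control (red), SJY against control (blue) and SJY against ALI (purple). Filled points passed an adjusted p of 0.05 by limma. All purple points are open, and C5 and Cd55 lie to the left of 0 in both comparisons against control.

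The wider pathway was described from a list of 55 complement genes, the members included. This list was also chosen with earlier results of these data known. Of these, 52 had a line in the table and 41 were tested. In ALI 15 rose and 5 fell against control, with a median change of 0.58 log2 units against −0.12 over all genes. Over all genes tested, 17.6% were called in ALI against control (8.02% higher, 9.56% lower) and 32.6% in SJY against control (14.6% higher, 18.1% lower). These shares also stand beside the counts by role group below. In SJY 16 rose and 4 fell against control, with a median of 0.49 against −0.11 over all genes, and with equal totals of non-mitochondrial genes 14 rose and 7 fell. In the same comparison that rescaling moved the split of all called genes from 1959 higher and 2431 lower to 1352 higher and 3759 lower. For ALI against control it moved from 1079 higher and 1287 lower to 953 and 1728. Median-of-ratios scaling brought the median change of all genes to 0.0014 log2 units in ALI and −0.0033 in SJY, and it called 18 complement genes higher and 4 lower in ALI and 20 and 4 in SJY. Between SJY and ALI limma called 0 of the 41, and 8 had an unadjusted p under 0.05 (6 higher, 2 lower in SJY), where 11.8% of all genes did. Without ALI 1, 6 of the 41 were called in that comparison, and 181 of all genes were, against 1 with all libraries.

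Among classical and lectin components, 7 of 13 rose and 0 fell in ALI. The C1 proteases had the largest rises of this group, C1s from 24.4 to 130 FPKM in the mean (2.34 ± 0.21 log2 units, limma adjusted p = 6.4e-06) and C1r from 51.3 to 188 FPKM (1.82 ± 0.14, adjusted p = 1.83e-06). C1qc, a chain of the C1q recognition protein made by macrophages, rose by 1.63 ± 0.42 log2 units (limma adjusted p = 0.0155), a call lost in a fit of these 2 groups alone (adjusted p = 0.0514). ALI 1, at 34.2 FPKM, lay below every control library. Between SJY and ALI, C1qc was not called with all libraries (−0.44 log2 units, adjusted p = 0.729) and was lower in SJY without ALI 1 (−0.96, adjusted p = 0.0355). In SJY 6 of 13 rose and 0 fell against control. Fcnb, a ficolin of the lectin route that is also a neutrophil granule product and 1 of the neutrophil markers above, led with 104.7 FPKM in the mean against 11.1 in control (3.07 ± 0.27 log2 units, limma adjusted p = 1.53e-06). Fcnb was also called in ALI, at 32.5 FPKM (1.46 ± 0.27 log2 units, adjusted p = 0.00214). SJY exceeded ALI by 1.61 ± 0.27 log2 units with no overlap of libraries, but this was not called (adjusted p = 0.0757). Neither of these is given here without ALI 1. C1s and C1r rose by 2.16 and 1.82 log2 units in SJY. ALI 1 had the lowest C1r, C1s and Serping1 of the ALI libraries, at 130, 74.7 and 291 FPKM, and also the lowest sum of 7 fibroblast and matrix markers, 397 FPKM against 727 to 891 in the other ALI libraries, as it had for the other lists named at the start. Of these markers 3 rose and 0 fell in ALI, and 3 rose and 0 fell in SJY, and the sum was 321 to 438 FPKM in control and 621 to 772 in SJY. The part of these cells in the levels of C1r, C1s and Serping1 was not tested. C4a and C4b are near-identical copies, so their separate values are uncertain.

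**Figure D5:**
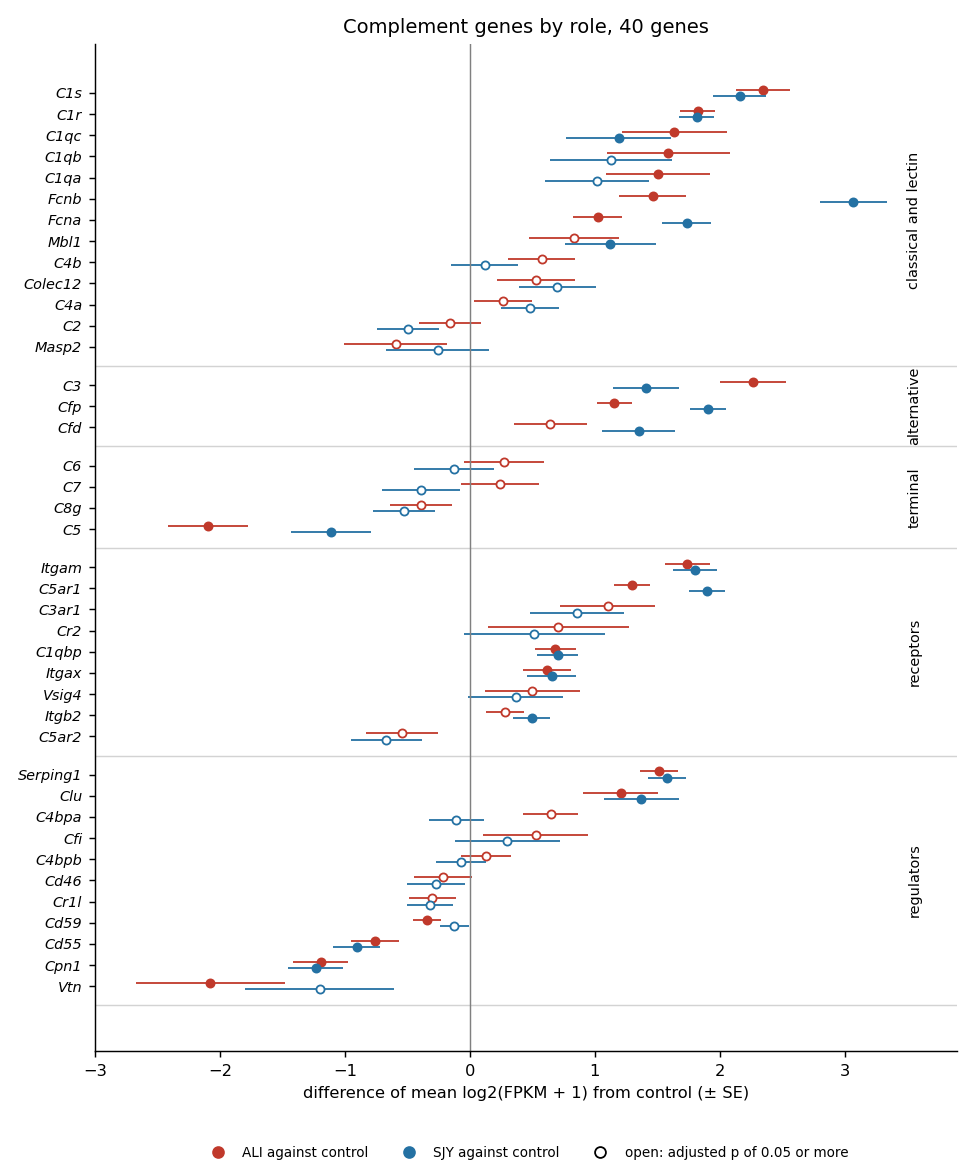
Difference of mean log2(FPKM + 1) from control (points) with its SE (bars) for 40 of the 41 tested complement genes, grouped by role, in ALI (red) and SJY (blue). Filled points passed an adjusted p of 0.05 by limma. No filled point of the classical and lectin, alternative or receptor groups lies left of 0, while the 1 filled terminal gene, C5, does.

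Of the 3 tested alternative-route genes, 2 rose in ALI and 3 rose in SJY, with 0 falling in either. Cfp encodes properdin, which stabilises the alternative C3 convertase and is stored by neutrophils. It went from a mean of 32.7 FPKM in control to 74.6 in ALI (1.15 ± 0.14 log2 units, limma adjusted p = 6.68e-05) and 125.8 in SJY (1.90 ± 0.14, adjusted p = 4.19e-07). SJY was 0.75 ± 0.14 log2 units above ALI with no overlap of libraries (limma adjusted p = 0.105), and without ALI 1 this passed (0.82, adjusted p = 0.012).

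Terminal components other than C5 were not called in the main fit. C7 had a mean of 93.7 FPKM in control lung, against 119.8 FPKM in ALI and 72.1 FPKM in SJY. C8g had means of 6.07, 4.65 and 3.96 FPKM in the same order. In SJY against control C8g differed by −0.52 ± 0.25 log2 units (limma adjusted p = 0.117), and it was called without ALI 1 (adjusted p = 0.0243), in a fit of these 2 groups alone (0.0283), with array weights (0.00425) and with equal non-mitochondrial totals (0.0469). Array weights also called C7 lower in SJY than in ALI (−0.79 log2 units, adjusted p = 0.0459, against 0.45 without weights). In the receptor group 4 of 9 rose and 0 fell in ALI, and 5 rose and 0 fell in SJY. Itgam, the alpha chain of complement receptor 3 on neutrophils and macrophages, rose from 6.17 to 22.8 FPKM in ALI (1.74 ± 0.18 log2 units, limma adjusted p = 1.78e-05) and to 24.3 in SJY (1.80 ± 0.18, adjusted p = 4.46e-06). C1qbp and the integrin gene Itgax rose by 0.68 and 0.62 log2 units in ALI and by 0.70 and 0.65 in SJY. For Itgax the call in ALI (limma adjusted p = 0.0383) was lost without any 1 of control 4, 5 and 6, ALI 2 and 3 and SJY 4 (adjusted p from 0.0503 to 0.0892). It was also lost with no filter (adjusted p = 0.052), in a fit of ALI and control alone (0.0647) and with equal non-mitochondrial totals (0.0549). The Itgax call in SJY (adjusted p = 0.0179) was lost without SJY 3 (adjusted p = 0.0509) and with equal non-mitochondrial totals (0.0559).

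Regulators went both ways, with 2 of 12 rising and 4 falling in ALI and 2 rising and 3 falling in SJY. Clu, which encodes the fluid-phase inhibitor clusterin, rose by 1.21 ± 0.30 log2 units in ALI (limma adjusted p = 0.0129) and 1.37 ± 0.30 in SJY (limma adjusted p = 0.00331), although ALI 1 at 136 FPKM lay below every control library. Cpn1, the catalytic subunit of carboxypeptidase N, which removes the terminal arginine of C3a and C5a, fell from 16.9 to 7.29 FPKM in ALI (by 1.19 ± 0.22 log2 units, limma adjusted p = 0.00209). It was 6.66 FPKM in SJY (−1.23 ± 0.22 log2 units, adjusted p = 0.000887), and the control libraries, at 14.9 to 18.9 FPKM, did not overlap either group. Vtn, which encodes the terminal-complex inhibitor vitronectin, fell by 2.08 ± 0.59 log2 units in ALI (limma adjusted p = 0.0262), with ALI 1 at 0.352 FPKM, a call lost without control 5 (adjusted p = 0.0643), control 7 (0.0532) or ALI 3 (0.0505). A pseudocount of 0.1 (adjusted p = 0.053) or 0.01 (0.0609) also ended it, as did a fit of ALI and control alone (0.0664). Cd59, which blocks pore assembly on host cells, fell by 0.34 ± 0.11 log2 units in ALI (limma adjusted p = 0.0461), a call lost without any 1 of control 4, 6, 7 and 8, ALI 1, 2 and 3 and SJY 3, 4, 5 and 6 (adjusted p from 0.0586 to 0.108), and lost after median-of-ratios scaling (adjusted p = 0.311). The Cd59 call was also lost with no filter (adjusted p = 0.0505), without the trend and robust settings (0.0558) and in a fit of ALI and control alone (0.117).

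For each tested member the 2 genes most like it over the 15 libraries were sought among genes with a mean of at least 5 FPKM, by the root mean square difference of standardised log2(FPKM + 1) values (0 for identical profiles). The closest pair was Serping1 and C1r, at 0.166. For C3 the nearest were Cd177 at 0.18 and Tnfrsf11a at 0.299, and for C5ar1 an unnamed locus (AABR07003235.1) at 0.181 and Lst1 at 0.198. Cfd was nearest to Ifitm2 (0.338), C2 to the locus AABR07031494.1 (0.348), C3ar1 to Lrrc49 (0.372) and Cd55 to Hivep2 (0.391). C5 had the least similar neighbours, Nr4a1 at 0.553 and Wdr34 at 0.585. These values hold the differences between groups as well as those within them, and no test is attached.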

How the data were processed

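Lung RNA of 15 rat libraries was grouped by the labels' titles. Per the submitters' processing notes, cutadapt, HISAT2, StringTie and the build Rnor_6.0 were used, with versions, roles and strand setting not given in the sources used here. The authors deposited gene-level FPKM, per the file headers. Such values carry no depth, so counting error cannot be stated, and a 0 may be a failed estimate. Libraries were made from 1 µg of total RNA, per the labels' protocols.

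A repeated symbol was taken at its line of highest mean. Genes at 1 FPKM or more in at least 5 libraries (13457) were tested on log2(FPKM + 1) with limma 3.58.1 in R 4.3.3 (all 3 groups in 1 fit, eBayes with trend and robust settings, two-sided, Benjamini-Hochberg over all genes), which was tested on simulated data. Means and SDs are of FPKM, SEs are limma's. Named genes are the members and, per role group and comparison, up to 3 called genes per direction with the largest change, or the 2 of highest mean where none was called. The members and lists were chosen with earlier results of these data known. 1 gene counted in the list totals is not reported here. Mbl2 and Cd93 were not analysed here, and Cd59b is a synonym of Cd59. Stretches before gene starts are from RefSeq (GRCr8), which held 5 of the 9 members. The macrophage sum without Lyz2 was added after its values were seen. The labels do not say that replicate numbers shared between groups pair the libraries, and the main fit treats them as unpaired.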

Additional observations from a re-analysis of the deposited data

Results flagged for a closer look

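The 78 groups of 5 libraries examined covered the genes of the naming rule and the mitochondrial share. Of these, 6 held 1 library far from the others, and chance gives about 1 in 20. Other complement genes were not covered. For example, Cr2 was 24.3 FPKM in ALI 3 and 1.01 to 2.09 FPKM in the other ALI libraries. The mitochondrial share was 37.7% in ALI 1 (8.31% to 14.1% in the other ALI libraries) and 17.1% in SJY 1 (10.4% to 12.2% in the other SJY libraries). C1qc was 158 FPKM in SJY 4, against 91.5 to 106 in the other SJY libraries. In control, C1qbp was 65.1 FPKM in control 4 (others 48.1 to 50.8), Vtn was 57.1 FPKM in control 5 (others 34.4 to 40.8) and Fcnb was 17.5 FPKM in control 7 (others 8.29 to 10.7). No member had such a library in any group.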

How the results depend on the processing

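The 24 member changes were recomputed under 10 settings and without each library in turn, which gave 597 values: 574 kept direction and side of the threshold, 5 lost a call, 12 gained one and 6 changed sign. The calls of C3, C5ar1 and Serping1 against control held in all of these, in both LPS-treated groups. The sign changes of members were in results that were not called: C2 in ALI against control was 0.38 with the replicate block, and Serping1 in SJY against ALI was −0.14 with array weights, −0.042 with equal non-mitochondrial totals and −0.077 to 0.16 without 1 library, where C3ar1 ran from −0.41 to 0.011. Of other genes in SJY against ALI, C1qbp was −0.0078 with median-of-ratios scaling, −0.0011 with the block, −0.086 with equal totals and −0.066 to 0.19 without 1 library, Clu was −0.11 with array weights and −0.19 to 0.38 without 1 library, C1r ran from −0.13 to 0.11 and C8g from −0.37 to 0.0044. C7 in SJY against control was 0.12 with the block. In SJY against ALI, array weights called 1 member and 6 complement genes, and without 1 library the counts were 0 to 1 and 0 to 6, the higher ones without ALI 1. The cause was not tested.

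For libraries of different groups with the same replicate number, the labels name no pairing. Deviations from group means correlated at −0.39 to 0.30 in 9 pairs, and 3 of 12 libraries were closest to one of their own number. So few pairs cannot decide whether the libraries share a batch. With the replicate number as a block, which leaves fewer residual degrees of freedom, 11 complement genes were called in ALI against control (20 without it), and 313 of all genes against 2366. Control 7, control 8 and ALI 2 share their number with no other library. The block fits them exactly, so they no longer inform the comparison, and lost calls may reflect that as well as a batch. The block called C3ar1 higher than control in ALI (2.23 log2 units, limma adjusted p = 0.0158) and in SJY (1.65, adjusted p = 0.0164). It ended the calls of Cd55 in ALI (adjusted p = 0.266) and of C5 (0.0698) and Cfd (0.168) in SJY against control. Among other genes named it ended those of Clu (0.196 in ALI, 0.0674 in SJY), C1qbp (0.248 and 0.139), and, in ALI, Cpn1 (0.0828), C1qc (0.169), Vtn (0.351) and Cd59 (0.587). Over the other settings the count of all genes called was 1307 to 3959 in ALI against control, 0 to 478 in SJY against ALI and 3410 to 7654 in SJY against control (1142 with the block), and without 1 library 1538 to 2890, 0 to 181 and 3329 to 5953. Depth is unknown, so changes of genes near 1 FPKM are the least certain.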

Other observations

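Alveolar type I cells form the thin gas-exchange surface. All 8 of their markers tested fell in ALI against control by limma, and 6 of 8 fell in SJY. Control libraries had a summed marker level of 3034 to 4241 FPKM. The sum was 673 to 2175 FPKM among ALI libraries and 1592 to 2557 FPKM among SJY libraries, so neither LPS-treated group overlapped control. Of 6 endothelial markers tested, 1 rose and 1 fell in each LPS-treated group against control. Over all genes tested, 17.6% were called in ALI (8.02% higher, 9.56% lower) and 32.6% in SJY (14.6% higher, 18.1% lower).

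C5ar2, the second receptor for C5a, lies outside the rule for named genes and was looked at after its values were seen. Its mean was 15.6 ± 4.77 FPKM in control, 11.1 ± 5.55 FPKM in ALI and 9.17 ± 1.19 FPKM in SJY (SD, n = 5). Limma called no difference (adjusted p = 0.185 for ALI against control, 0.0851 for SJY against control and 0.908 for SJY against ALI).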
